A study of Mus musculus with 5 samples.

Results

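U5 small nuclear RNA (snRNA) is counted under 1 name, snRNA_U5, in each of the 5 melRNA-seq libraries. Each library has 446 to 874 names with a count. Of these, 10 to 12 begin with snRNA (the snRNA names below), and in testis some of them identify no RNA. U5 was chosen by measured values, namely its reads, shares and ratios between the libraries and its size against the other snRNA names. These levels and ratios are therefore given below as a description and carry no test. In this method RNAs of medium length are ligated to adaptors at both ends and read from end to end. A read thus spans the whole ligated molecule, and read numbers are not divided by length. That molecule can be a fragment of a longer RNA. The labels give a length of 115 to 255 nt for all 5 libraries, and the methods give this range for testis alone. The 3 testis libraries were made from total RNA of whole C57BL/6J testes, for which the study's supplement lists postnatal day 7, with 600 ng of RNA each. 1 library was made without enzyme, 1 after 25 U of TAP (named tobacco alkaline phosphatase in the labels) and 1 after 20 U of 5' polyphosphatase (5Pase). The 2 spermatogonia libraries are replicates made after RppH (RNA 5' pyrophosphohydrolase) from C57BL/6J cells that were sorted by EpCAM at day 7, and the study calls these replicates biological. All 5 were sequenced on a MiSeq. The listed names are repeats and noncoding RNAs without messenger RNAs, so the identity of testis and spermatogonia could not be checked with marker genes.

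U5 is transcribed by RNA polymerase II, carries a trimethylguanosine cap at its 5' end and is bound by a ring of Sm proteins near its 3' end. It enters the spliceosome in the tri-snRNP together with U4 and U6, and its conserved loop, held by the protein Prp8, contacts the exons at the splice sites. The 5' adaptor can be ligated only to a monophosphate end. TAP opens both caps and triphosphates to a monophosphate, whereas 5Pase acts on triphosphates and leaves caps closed, so a capped RNA is expected to be read after the first enzyme and not after the second. 5.8S rRNA, which is cut from a precursor and has a monophosphate, needs no enzyme and served as the reference.

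The deposited name does not tell which U5 gene gave a read, so its reads are not divided among gene copies here. In the GENCODE annotation of the mouse genome (release M21, GRCm38), the U5 transcript is 116 nt long and lies just above the lower edge of that range. The annotated U1 (Rnu1a1, 164 nt) and U2 (Rnu2-10, 191 nt) lie inside that range, and U6 (Rnu6, 107 nt), U7 (Rnu7, 62 nt) and 7SK (Rn7sk, 331 nt) lie outside it, although all of them were read.

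Between 2712840 and 3307056 reads were sequenced per testis library and 5209661 to 6426081 per spermatogonia library, and 32.3% to 49.3% of these were listed under a name. 5.8S rRNA took 27.2% of the listed reads without enzyme, 50.2% after TAP, 19.2% after 5Pase, and 39.1% and 25.9% in spermatogonia replicates 1 and 2. This spread enters every value below that is given per 5.8S rRNA read. Intervals are 95% intervals (Wilson for shares, from the log of the ratio for ratios). As the reads carry no molecular identifiers, they cover counting error only.

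In untreated testis RNA, 3322 of 1160933 listed reads were U5, a share of 0.286% (0.277% to 0.296%). After TAP there were 138302 of 1067851, or 13.0% (12.9% to 13.0%). After 5Pase there were 1959 of 1081523, or 0.181% (0.173% to 0.189%). Thus U5 was read in large number only in the testis library treated with the enzyme that opens caps. In spermatogonia after RppH, replicate 1 held 167207 U5 reads of 3166394, or 5.28% (5.26% to 5.31%). Replicate 2 held 248617 of 1993087, or 12.5% (12.4% to 12.5%). The mean share of the replicates was 8.88% ± 5.09 (SD, n = 2). The TAP library lay above both replicates on this scale, but 18S and 28S rRNA are listed in spermatogonia alone, where they take 26.7% and 28.2% of listed reads. Without them U5 was 7.20% and 17.4% of the other listed reads, so that the TAP library at 13.0% lay between the replicates. It also lay between them as a share of sequenced reads, with 4.18% against 2.60% and 4.77%.

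U5 was the 42nd most read of 446 names without enzyme and the 51st of 521 after 5Pase, but the 3rd of 616 after TAP, behind 5.8S rRNA and a name (snRNA_small) that identifies no RNA. It was also the 3rd of 874 and of 772 names in the spermatogonia replicates, behind 5.8S and 28S rRNA, the latter not listed in testis. Expressed per 1000000 5.8S rRNA reads (RPM), the level of U5 was 10509 in untreated testis, 258017 after TAP and 9418 after 5Pase. In spermatogonia it was 135176 in replicate 1 and 482182 in replicate 2, with a mean of 308679 ± 245371 (SD, n = 2). On this scale the TAP library lay between the spermatogonia replicates. In order of RPM, spermatogonia replicate 2 came first, followed by testis after TAP, spermatogonia replicate 1, untreated testis and testis after 5Pase. By RPM, the TAP library does not differ from spermatogonia beyond the spread of the replicates, and for the last 2 the spread is unknown because each is 1 library.

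**Figure D1:**
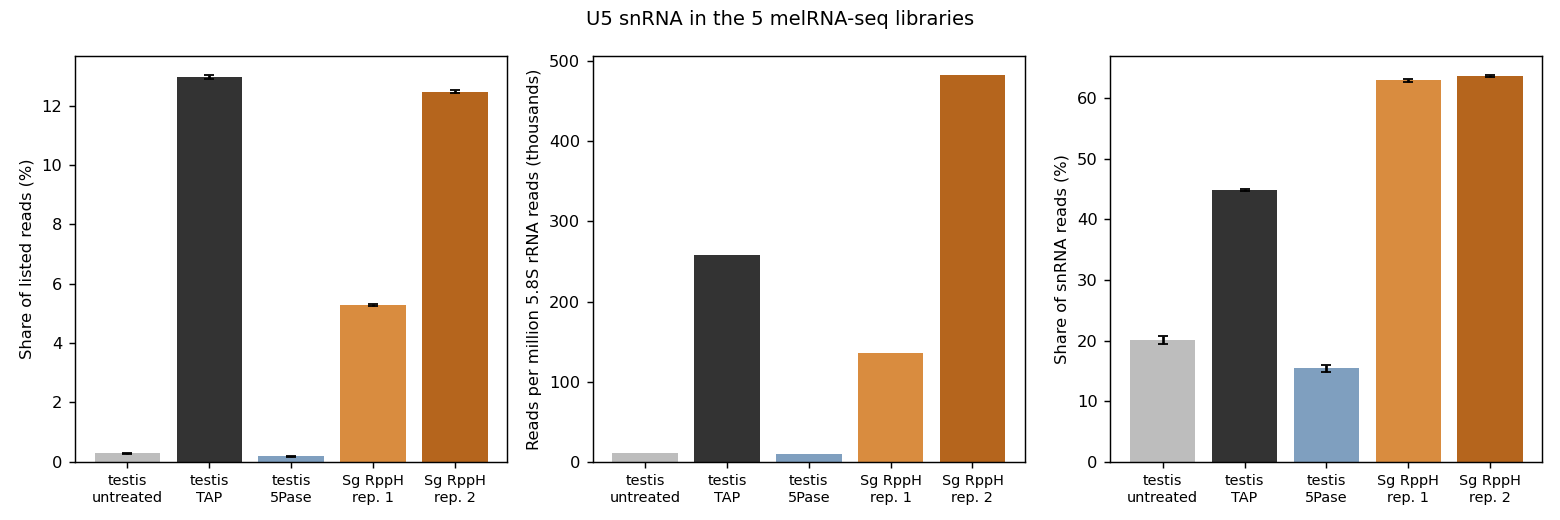
Bars give U5 in each library (x axis) as a percent of listed reads, as RPM in units of 1000, and as a percent of the reads under all snRNA names, and error bars are Wilson 95% intervals for the shares. The untreated and 5Pase libraries lie at 0.286% and 0.181% of listed reads against 13.0% after TAP, and the spermatogonia replicates (Sg) differ in both levels but not visibly in the share of snRNA reads (62.9% and 63.6%).

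Per 5.8S rRNA read, U5 was 24.6-fold higher after TAP than without enzyme (23.7 to 25.4). The size of this ratio depends on what is counted, from 11.5 with the snRNA names that identify no RNA counted as U5 to 62.7 per listed read other than snRNA, and its direction does not. Among 128 names with at least 100 reads after TAP, 23.4% were over 2-fold higher, and the median ratio was 0.298. U5 stood 82.3-fold above that median and was 4th in rank. Above it were the tyrosine tRNA names chr5.trna109-TyrGTA, with 391 reads after TAP against 1 without enzyme, and chr14.trna191-TyrGTA, with 268 against 1. Their denominators of 1 read leave the ratios at 231 (32.4 to 1641) and 158 (22.2 to 1126). The name snRNA_musculus, which identifies no RNA, was at 24.8 (15.1 to 40.7) with 673 reads against 16, an interval that includes the value of U5. Directly below were the names snRNA_RNA at 22.9 (21.1 to 24.9), scRNA_embryo at 17.5 (12.7 to 24.1) and U7, the snRNA of histone mRNA 3' end processing, at 12.1 (7.64 to 19.2). Among the 46 names with at least 1000 reads after TAP, U5 was 1st. These ratios compare libraries, not treatments, since each testis treatment has 1 library.

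With 5Pase, the ratio to untreated testis was 0.896 for U5 (0.847 to 0.948), and it turned to 1.16 with the snRNA names that identify no RNA counted as U5. U5 held rank 126 of 139 names with at least 100 reads after 5Pase. The median of these names was 1.66, and 28.1% were over 2-fold higher. For comparison, 5S rRNA, a polymerase III transcript with a triphosphate, had 3193 reads without enzyme and 15080 with 5Pase, a ratio of 7.18 (6.91 to 7.46), and was at 4.14 (3.99 to 4.30) with TAP. 7SK RNA, also made by polymerase III but with a methyl cap on its triphosphate, was at 2.29 (2.05 to 2.54) with 5Pase and 3.44 (3.14 to 3.76) with TAP. At 331 nt, 7SK is longer than a sequencing read of the study, so its reads cannot span the whole RNA. Whether they hold its 5' end was not tested. The ratio of U5 to untreated testis was therefore lower than those of 5S rRNA and 7SK with 5Pase and higher than both with TAP.

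The direct ratio of TAP to 5Pase was 27.4 for U5 (26.2 to 28.7), with 138302 reads against 1959. It went from 9.88 with the names that identify no RNA counted as U5 to 99.4 per listed read other than snRNA. Only 8 of 128 names (6.25%) were over 2-fold higher in this comparison, and the median was 0.225, so U5 stood 122-fold above the median. It was 2nd in rank. The only name above it was snRNA_RNA, with 23235 reads against 245 and a ratio of 36.8 (32.4 to 41.7), and snRNA_RNA identifies no RNA. Below it were snRNA_musculus at 18.7 (11.0 to 31.7), U7 at 15.1 (8.08 to 28.3) and snRNA_small at 6.34 (6.20 to 6.49). Among the names that identify an RNA, U5 was thus the one with the highest ratio, although its ratio over that of U7, 1.81 (0.965 to 3.40), has an interval that includes 1.

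**Figure D2:**
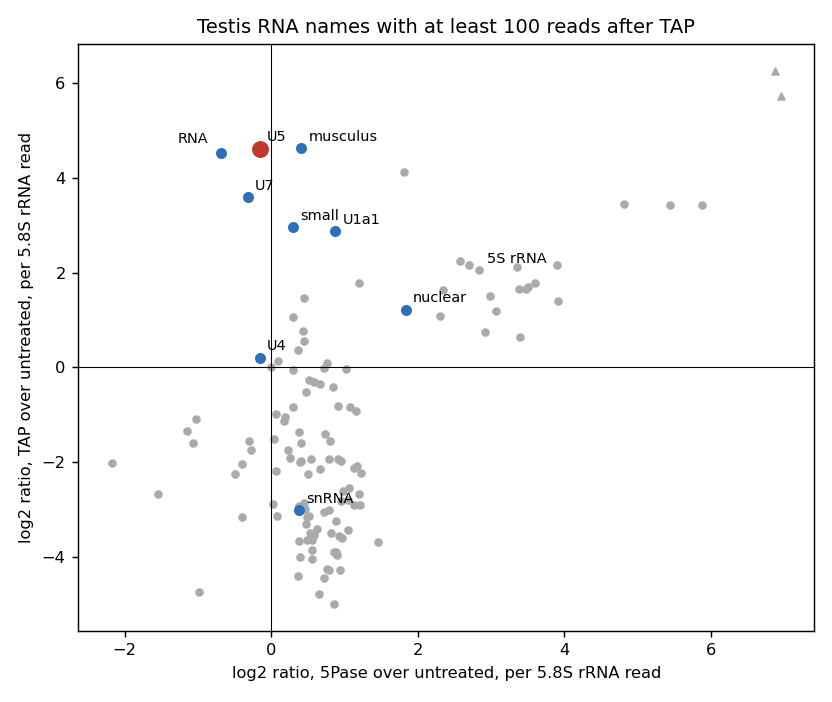
Each point is 1 of the 128 testis names with at least 100 reads after TAP, placed by its log2 ratio of 5Pase to untreated (x axis) and of TAP to untreated (y axis), both per 5.8S rRNA read. U5 (large red point) lies at -0.16 and 4.62, near snRNA_RNA, snRNA_musculus and U7 (blue points are snRNA names, grey points other names), while 5S rRNA lies to the right, and triangles are names with 3 or fewer untreated reads, set to 3 reads.

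Counted under their own names, the other listed snRNAs of the spliceosome had smaller ratios of TAP to untreated than U5. The snRNA names that identify no RNA held 74.0%, 53.5% and 78.3% of the snRNA reads in the untreated, TAP and 5Pase libraries. Whether they hold reads of U1, U4 or U6 was not tested, so the ratios here cover the named reads alone. U1, which recognises the 5' splice site, had 257 reads of U1a1 without enzyme and 3192 after TAP, a ratio of 7.33 (6.45 to 8.32), and was at 1.83 (1.55 to 2.16) with 5Pase. The ratio of TAP to untreated was 3.35-fold higher for U5 than for U1a1 (2.94 to 3.82). U4, which is paired with U6 in the tri-snRNP and is also capped with trimethylguanosine, had 647 reads without enzyme, 1267 after TAP and 382 after 5Pase. Its TAP ratio was 1.15 (1.05 to 1.27), 21.3-fold lower than that of U5, whereas its 5Pase ratio, 0.897 (0.791 to 1.02), was close to that of U5. U6, a polymerase III transcript with a methyl cap, had only 39, 84 and 91 reads, with ratios of 1.27 (0.869 to 1.86) for TAP and 3.55 (2.44 to 5.16) for 5Pase. Thus U4 and U6, the partners of U5 in the tri-snRNP, had ratios of TAP to 5Pase of 1.29 (1.15 to 1.44) and 0.358 (0.266 to 0.482).

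The names whose pattern was most like that of U5 were sought over the libraries. Likeness was measured as the root mean square difference of log2 reads per 1000000 listed reads, with 1 read added and each name centred on its own mean. Over the 5 libraries and the 97 names with at least 100 reads after TAP and in each spermatogonia replicate, U7 was the closest. The difference from U5 was 0.71 for U7, 1.65 for U1a1, 1.66 for the SINE B3A, 1.79 for the SINE B4A and 1.81 for the SINE RSINE1, against a median of 3.39. The minimum was asked only of libraries in which U5 was read in large number, so the list depends on it. With a minimum of 10 reads, 1 of these 5 names was kept. Over the 3 testis libraries alone, but with the same 97 names, U7 was at 0.49 and U1a1 at 1.15, followed by the snoRNA SNORND104 at 2.07, U4 at 2.08 and B3A at 2.09, against a median of 3.40. Without the minimum in spermatogonia (127 names, median 3.16), the closest in testis were snRNA_RNA at 0.23 and snRNA_musculus at 0.29, which identify no RNA, before U7 at 0.49, snRNA_small at 0.91 and scRNA_embryo at 1.06. U7 had 19, 390 and 10 reads in the untreated, TAP and 5Pase testis libraries and 315 and 509 in the spermatogonia replicates, that is 1 read for 175 to 531 of U5.

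The snRNA names together took 1.42% of listed reads in untreated testis, 28.9% after TAP and 1.18% after 5Pase, and 8.39% and 19.6% in the spermatogonia replicates. U5 made up 20.1% (19.5% to 20.7%), 44.8% (44.7% to 45.0%) and 15.4% (14.8% to 16.0%) of these reads in testis. In spermatogonia it made up 62.9% (62.8% to 63.1%) and 63.6% (63.5% to 63.8%), a mean of 63.3% ± 0.475 (SD, n = 2), and was the snRNA name with the most reads. A limit applies to the testis values: 6 snRNA names in these tables (snRNA_small, snRNA_RNA, snRNA_nuclear, snRNA_snRNA, snRNA_musculus and snRNA_(cell) identify no RNA. They held 12233, 165065 and 9954 reads, or 74.0%, 53.5% and 78.3% of the snRNA reads, and had none in spermatogonia. Of the snRNA reads under the other names, U5 made up 77.3% in the untreated, 96.5% in the TAP and 70.8% in the 5Pase library. If all reads of the 6 names were U5, its share of snRNA reads would be 94.1%, 98.4% and 93.7%. Which RNAs they come from was not tested.

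**Figure D3:**
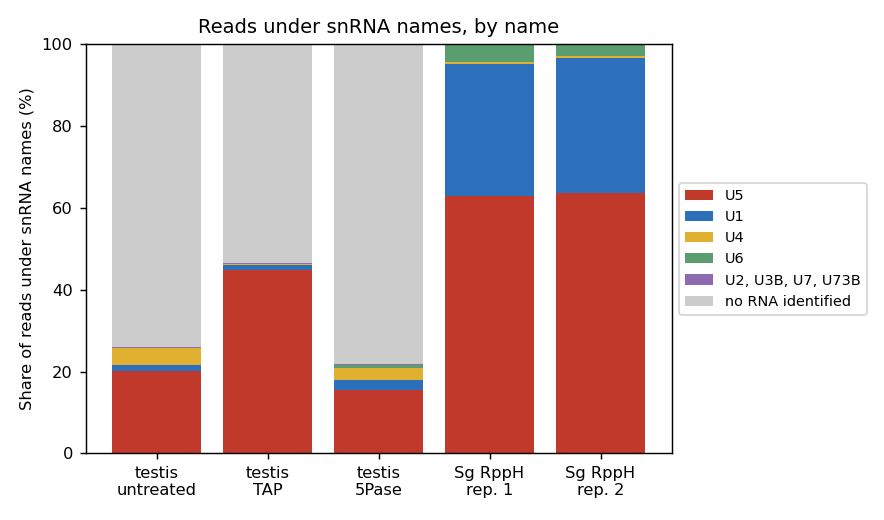
Stacked bars divide the reads under snRNA names in each library (x axis) into percent (y axis) for U5, U1, U4, U6, the sum of U2, U3B, U7 and U73B, and names that identify no RNA. U5 (red) is 44.8% after TAP and 62.9% and 63.6% in spermatogonia, and the grey names take 53.5% to 78.3% in testis and are missing from spermatogonia.

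Within a library, U5 can be set against another snRNA without a reference RNA. In testis after TAP there were 42.3 U5 reads per read of U1 (all U1 names, 40.9 to 43.8), against 12.4 (11.0 to 14.1) without enzyme and 6.07 (5.39 to 6.82) after 5Pase. In spermatogonia there were only 1.96 (1.94 to 1.98) and 1.94 (1.92 to 1.95), a mean of 1.95 ± 0.0165 (SD, n = 2), with 85343 and 128427 U1 reads against 3266 in testis after TAP. With the reads of the 6 names that identify no RNA added to U1, the testis ratio after TAP would be 0.822, so the difference between testis and spermatogonia in this ratio depends on those names. U5 over U4 was 5.13 without enzyme, 109 after TAP (103 to 115) and 5.13 after 5Pase. It was 102 (97.2 to 107) and 128 (122 to 134) in spermatogonia, with a mean of 115 ± 18.2 (SD, n = 2), so the TAP library lay between the replicates. U5 over U6 was 85.2 without enzyme (62.1 to 117), 1646 after TAP (1329 to 2039) and 21.5 after 5Pase (17.4 to 26.6). In spermatogonia it was 15.1 and 22.2, since these libraries held 11044 and 11183 U6 reads. U2, which pairs with the branch point, was listed only in spermatogonia, with 75 and 113 reads, or 1 read for 2229 and 2200 of U5. Whether the 6 names that identify no RNA hold reads of U2, U4 or U6 in testis was not tested. Among the other names, U1b6 had 10, 74 and 13 reads in testis and snRNA_(cell had 15 reads after TAP alone. In spermatogonia U1b1 had 48 and 60 reads, U73B 20 and 21, and U3B 14 and 11, while U3B had at most 1 read per testis library. In spermatogonia U1b6, a U1 variant, had 7911 and 11204 reads, so that U5 was 21.1-fold and 22.2-fold above it. These are ratios of reads, and whether they equal ratios of molecules in the cell was not tested.

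**Figure D4:**
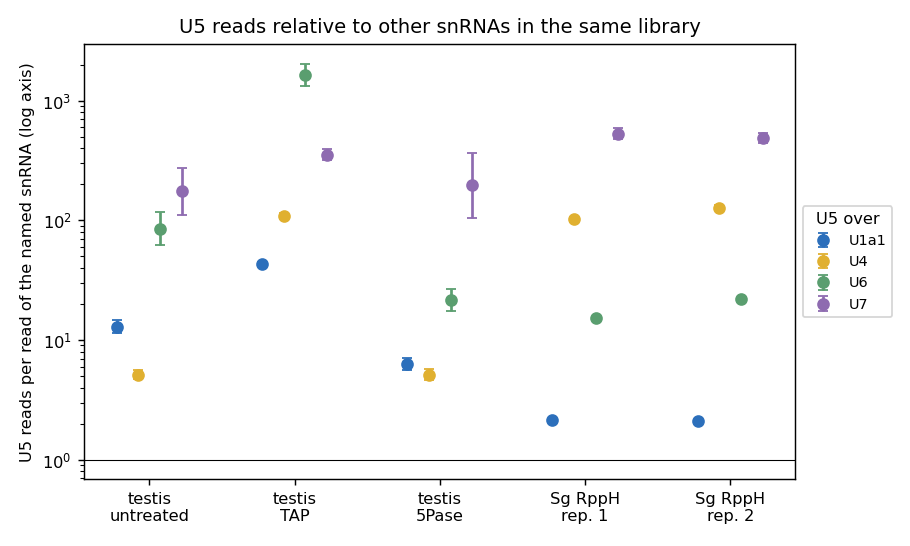
Points give U5 reads per read of U1a1, U4, U6 or U7 (y axis, log scale) in each library (x axis) with 95% counting intervals. U5 over U4 is 5.13 without enzyme, 109 after TAP, and 102 and 128 in spermatogonia (Sg), while U5 over U1a1 is 43.3 after TAP and 2.16 and 2.12 in spermatogonia.

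Spermatogonia and whole testis differed in tissue, enzyme, library kit, RNA amount, age label and the set of listed names at once. These differences cannot be told apart. The age of day 7 given above for testis is the one listed in the study's supplement. In such bulk samples, fewer cells with U5 and less U5 per cell cannot be told apart either. Per 5.8S rRNA read, U5 in spermatogonia over testis after TAP reached 0.524 in replicate 1 (0.520 to 0.528), whereas replicate 2 reached 1.87 (1.85 to 1.88), with a mean of 1.20 ± 0.951 (SD, n = 2). The replicates thus lay on both sides of the TAP library, but per listed read (0.408 and 0.963) and per tRNA read (0.319 and 0.504) both lay below it. No direction can be given. The values that follow are again per 5.8S rRNA read. Of 188 names with at least 100 reads in each replicate, 66% were over 2-fold higher than in testis after TAP in both replicates, and U5 was not among them. U5 was 1 of 8 names that were below 1 in replicate 1 and above 1 in replicate 2, and 2 names did the reverse. The median ratio was 5.73 in replicate 1 and 9.39 in replicate 2, and U5 stood at 0.0914 and 0.199 of these medians, rank 188 of 223 and 146 of 194. U4 behaved alike, with ratios of 0.560 (0.521 to 0.603) and 1.60 (1.49 to 1.71), and so did U7, with 0.350 (0.302 to 0.406) and 1.36 (1.19 to 1.55). So did 5S rRNA, which has a triphosphate and no cap, with 0.383 (0.375 to 0.390) and 1.63 (1.61 to 1.66). U1a1, in contrast, was at 10.5 (10.1 to 10.9) and 38.2 (36.8 to 39.5), and U6 at 57.0 (46.0 to 70.6) and 138 (112 to 172). At 107 nt, U6 lies below the length range that the methods give for testis alone, and U5 lies just above its lower edge. Whether the size selection differed between the groups was not tested. The value of U1 depends on the names that identify no RNA: for all U1 names together it was 11.3 and 40.9, but 0.220 and 0.793 with those testis reads counted as U1. Whether those names also hold reads of U4, U6 or U7 was not tested.

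The replicates themselves differed in U5. Per 5.8S rRNA read, replicate 2 was 3.57-fold higher than replicate 1 (3.54 to 3.59), while 28.9% of the 194 names with at least 100 reads in replicate 2 were over 2-fold higher. The median of the 188 names with at least 100 reads in each replicate was 1.58, and U5 was 15th among them. As a share of listed reads, replicate 2 was 2.36-fold higher against a median of 1.04, and of sequenced reads 1.83-fold higher against 0.810. The other capped snRNAs also had more reads in replicate 2, and the ratio was 3.63 (3.60 to 3.67) for U1a1, 3.61 (2.70 to 4.84) for U2, 3.88 (3.37 to 4.46) for U7 and 2.85 (2.67 to 3.04) for U4. U6 was at 2.43 (2.37 to 2.49) and 5S rRNA at 4.27 (4.19 to 4.35). Between the replicates, U5 over U1 differed by 0.988-fold, U5 over U4 by 1.25-fold and U5 over U6 by 1.47-fold, each less than the 1.83-fold difference of U5 per sequenced read.

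**Figure D5:**
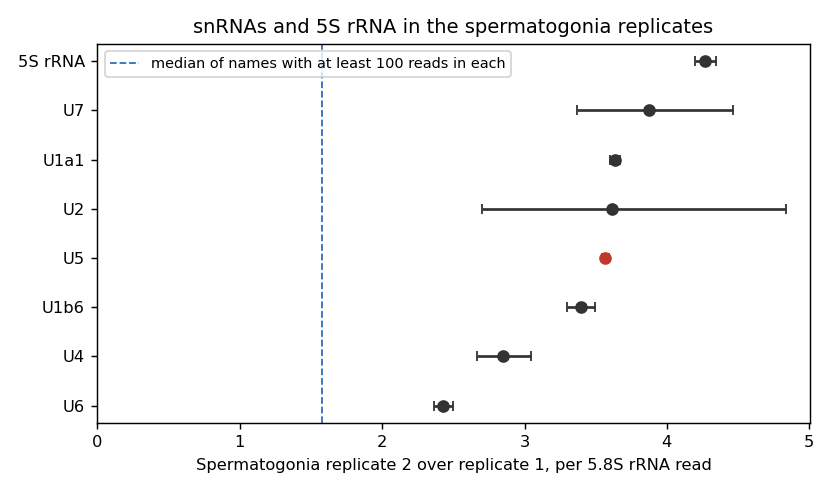
Points give the ratio of spermatogonia replicate 2 to replicate 1 per 5.8S rRNA read (x axis) for 5S rRNA and the snRNAs that had at least 75 reads per replicate (y axis), with 95% counting intervals. U5 (red) at 3.57 lies beside U2 and U1a1, all shown RNAs lie above the dashed median of 1.58, and U4 and U6 are the lowest at 2.85 and 2.43.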

How the data were processed

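The authors deposited raw counts, 1 whole number of reads for every listed repeat or RNA. Per the methods, reads without the 3' adaptor were discarded (Cutadapt) and the others assigned with RepeatMasker. Their versions are not given in the sources used here. Lines that name no RNA (totals, and 1 line without a count in the untreated and 5Pase tables) were skipped, and the spelling of B2 names was made uniform. 0 columns belonged to other samples.

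From the counts, shares, RPM (reads per 1000000 5.8S rRNA reads) and ratios with 95% intervals were computed in Python 3.11.15 with numpy 2.4.6, scipy 1.17.1 and matplotlib 3.10.9. Only the intervals were tested on simulated data. These data were drawn with counting error alone, so the spread between libraries was not covered. Ranks use names with at least 100 reads in the numerator library and set counts under 3 to 3. No test between libraries was made, since each testis treatment has 1 library. Sequencing totals are those of the study. The labels repeat the testis protocol for spermatogonia. The methods, which were followed, give RppH, another kit and another RNA amount.

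Transcript lengths come from GENCODE release M21 (GRCm38). The sequence of U5 is not reported here. U5 and the lists were chosen with earlier results of these data known. The text names every snRNA name, 5S, 5.8S and 7SK RNA, the 5 names most like U5, and the 3 names on each side of U5 by the TAP ratios. Alternatives changed the denominator, the minimum reads, the pseudocount, the replicates used, the 18S and 28S rRNA in the total, and the names counted as U5 or U1.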

Additional observations from a re-analysis of the deposited data

How the results depend on the processing

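The gain of U5 with TAP and its excess over 5Pase kept their direction under every denominator. The ratio of TAP to untreated, 24.6 per 5.8S rRNA read, was 45.3 per listed read, 39.7 per sequenced read, 62.7 per listed read other than snRNA and 29.7 per tRNA read. That of 5Pase to untreated, 0.896, was 0.633, 0.685, 0.631 and 0.464 in the same order, and that of TAP to 5Pase, 27.4, was 71.5, 57.9, 99.4 and 64.0. In an alternative added after the data were seen, all reads of the 6 snRNA names that identify no RNA were counted as U5. The ratios were then 11.5 for TAP to untreated and 9.88 for TAP to 5Pase, and that of 5Pase to untreated reversed to 1.16. As a share of sequenced reads, U5 was 0.105% without enzyme, 4.18% after TAP, 0.0722% after 5Pase and 3.69% on average in spermatogonia. The ratio of spermatogonia to testis after TAP, 1.20, was 0.685, 0.882, 0.584 and 0.411 under the other denominators in the order above. It was 0.545 with the 6 names as U5, and 0.949 per listed read other than 18S and 28S rRNA (also added after the data were seen). All of these means lay within 1 SD (0.951) of 1.20, but an SD this wide, from n = 2, cannot show that the ratio is stable. The position of the replicates did depend on the denominator. Both lay below the TAP library per listed read (0.408 and 0.963), per listed read other than snRNA (0.317 and 0.852) and per tRNA read (0.319 and 0.504). They lay on both sides of it per sequenced read (0.622 and 1.14) and without 18S and 28S rRNA (0.556 and 1.34). Leaving out either spermatogonia replicate gave 0.524 to 1.87 for the ratio of spermatogonia to testis after TAP per 5.8S rRNA read. It gave 135176 to 482182 for RPM, 5.28% to 12.5% for the share of listed reads, 1.94 to 1.96 for U5 over U1, 102 to 128 over U4, 15.1 to 22.2 over U6 and 488 to 531 over U7. With a minimum of 10 reads, U5 was rank 250 of 275 for 5Pase to untreated and 395 of 457 and 307 of 408 for the spermatogonia replicates over TAP. With 1000 reads it was rank 1 of 46 for TAP to untreated, 63 of 69 for 5Pase to untreated, and 83 of 95 and 55 of 72 for the spermatogonia replicates. Of the 5 names most like U5, 5 were kept with other pseudocounts and 1 with a minimum of 10 reads. Over the testis libraries, 1 of 5 was kept when the minimum was asked of TAP alone, an alternative added after the data were seen. No paired analysis was possible because each testis treatment has 1 library and no replicate numbers are shared between groups that have several. The depth limits the reading of U6, U7 and U3B in testis, which had 0 to 390 reads.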
